A study of Mus musculus with 13 samples.

Results

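Mptx1 and Mptx2 are the mouse genes of the mucosal pentraxins, short pentraxins of the gut lining. Both were found by their symbols in every library, 1 row each, and they are 2 of 35791 genes measured. They were chosen by their read counts in young and aged Paneth cells, where they were lowest relative to young cells, so the values that compare these groups are a description and carry no test. Tests are given where other libraries or other genes were measured.

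Pentraxins are secreted proteins whose subunits assemble into flat rings that bind phosphocholine and other ligands on microbes and damaged cells in the presence of calcium. The short pentraxins C-reactive protein (Crp) and serum amyloid P (Apcs) are made mainly by the liver, bind complement component C1q and engage Fc gamma receptors. The mucosal pentraxins are made in the intestinal epithelium. Mptx2 is used as a marker of Paneth cells, which sit between the stem cells at the bottom of the crypts and release granules of lysozyme and alpha-defensins.

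RNA was sequenced from Paneth and stem cells of crypts of the proximal small intestine, from which villi had been removed. All mice were labelled male, of mixed C57Bl6/SV129 background, and carried Lgr5-eGFP-IRES-CreERT2, in which the Lgr5 gene drives green fluorescent protein and an inducible Cre; no allele for this Cre to recombine is named. Young mice were 2 to 3 months and aged mice 20 to 22 months old, and the 13 libraries divide into 4 of young and 3 of aged Paneth cells and 3 each of young and aged stem cells. By its title the study is about Wnt signalling and age. Paneth libraries were made with a low-input kit and stem libraries by standard Illumina methods, and the effects of the kit and of the cell type cannot be told apart. No label states that libraries of 1 group came from different mice; p-values measure the spread between libraries, which may be technical.

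The authors' values are read counts per gene, with totals of 4210439 to 8612228 reads in Paneth and 8398966 to 19740104 reads in stem libraries. Levels are given as CPM, the reads of a gene per 1000000 reads of its library, with library sizes scaled by TMM (a factor set by the bulk of genes) over all 13 libraries. Lysozyme (Lyz1) stood at 1319 to 27640 CPM in Paneth and 233.5 to 792.9 CPM in stem libraries, and the R-spondin receptor gene Lgr5 averaged 36.1 CPM in young Paneth and 105.1 CPM in young stem libraries. Each cell type's markers were thus also present in the other's libraries. Esp38, Lars2 and Gm20594 took 26.75% to 66.24% of reads in Paneth libraries, a higher share in all 4 young than in all 3 aged ones. Young stem 1 stood apart from the other 12 libraries, with 12.63 CPM of Xist against 321.7 to 2874 CPM and 43.9 CPM of the Y-linked Ddx3y against 0.638 to 3.32 CPM, so results in stem cells are also given without it. All mice are labelled male, and it is the other 12 libraries, with Xist present and little Ddx3y, that go against this label.

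Both genes lie on chromosome 1 of GRCm38, with gene spans from RefSeq and transcripts from GENCODE M21. Mptx2 (Entrez 100504232) spans 173274461 to 173277756 on the minus strand, and Mptx1 (Entrez 66289) spans 174330518 to 174332877 on the plus strand, 1053 kb away. Each has 2 exons, a transcript of 794 (Mptx2) or 799 bases (Mptx1) and 657 coding bases before the stop codon. The GENCODE transcript of Mptx2 runs from 173274382 to 173277777, beyond the RefSeq span at both ends, and starts 21 bases upstream of the RefSeq start. Their coding sequences are identical at 604 of 657 aligned bases (91.9%), against 66.4% or less between either of them and Crp or Apcs. The 60 coding bases in which they differ most, coding bases 530 to 589 in exon 2, are shown because reads from there tell the genes apart; capitals mark the 11 differing bases (Mptx2 at chr1:173274532-173274591, minus strand; Mptx1 at chr1:174332659-174332718, plus strand; GRCm38, GENCODE M21).
Mptx2: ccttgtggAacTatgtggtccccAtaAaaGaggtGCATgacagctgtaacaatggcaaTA
Mptx1: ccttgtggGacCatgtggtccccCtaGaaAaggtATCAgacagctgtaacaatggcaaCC

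Reads that fall wholly within shared sequence cannot be assigned to 1 of the genes. Transcript bases outside the coding sequence were not searched for the longest shared stretch, and they can hold further ones. Within the coding sequence the longest shared stretch is 109 bases long, coding bases 59 to 167. Of these bases 6 lie in exon 1 and 103 in exon 2. The stretch is printed in lower case because it holds no difference.
Mptx1 and Mptx2: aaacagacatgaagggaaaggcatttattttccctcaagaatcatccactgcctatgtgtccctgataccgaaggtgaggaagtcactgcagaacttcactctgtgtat
Of the 50-base words of the Mptx1 transcript 17.87% also occur in Mptx2, and of the 100-base words 3.29%. The read length is not given in the sources used here. Several deposited values of both genes are fractions of reads, as reads split between genes would give, so each value is uncertain to that extent, while the sum of the pair is less so.

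The sequences before the transcription starts are also alike. Over the 250 bases before the RefSeq start (GRCm38.p6), 197 of 228 aligned bases of Mptx1 and Mptx2 match (86.4%), against 53.0% or less with Crp or Apcs. They are printed because the genes move together in these data; capitals mark the 6 runs of at least 12 aligned bases that are the same in both (Mptx2 at chr1:173277757-173278006, minus strand; Mptx1 at chr1:174330268-174330517, plus strand).
Mptx2: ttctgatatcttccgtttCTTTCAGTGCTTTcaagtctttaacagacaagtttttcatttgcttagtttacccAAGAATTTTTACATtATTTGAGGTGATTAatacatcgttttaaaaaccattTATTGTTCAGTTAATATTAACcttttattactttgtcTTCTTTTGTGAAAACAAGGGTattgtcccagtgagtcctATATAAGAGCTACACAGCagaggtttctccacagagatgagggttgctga
Mptx1: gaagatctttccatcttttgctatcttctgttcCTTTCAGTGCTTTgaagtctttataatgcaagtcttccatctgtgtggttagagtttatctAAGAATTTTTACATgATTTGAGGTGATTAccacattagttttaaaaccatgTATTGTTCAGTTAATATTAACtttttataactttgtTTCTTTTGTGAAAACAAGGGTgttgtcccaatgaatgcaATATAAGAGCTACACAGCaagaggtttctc

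Words of known motifs were searched on both strands of these 250 bases, with the sequences in view, and a match is a description only. TATAAG, in the last shared run, stands 24 to 29 bases before the start in Mptx1, where both annotations give the same start. In Mptx2 it stands 44 to 49 bases before the RefSeq start and 23 to 28 bases before the GENCODE start, so that the last 21 bases printed for Mptx2 lie within the GENCODE transcript; TATAAA or TATAAG occurs in 17.0% of 32851 promoters of the same length. The CDX words TTTATNG and TTTATNA, some of which overlap TATAAA on the other strand, match at 2 places in each gene and in 20.5% of promoters. Of the Wnt effectors TCF and LEF the 4 words CTTTGAA (or with another ending CTTTGAT, or as a variant CTTTGTA, or finally CTTTGTT) match at 2 places in Mptx1 and none in Mptx2, and in 14.8% of promoters. The word of GATA factors, AGATAA, matches at 1 place in Mptx1 and none in Mptx2, and in 9.99% of promoters. The E-box word CAGCTG matches in neither gene and in 13% of promoters.

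Mptx2 was among the more abundant RNAs of young Paneth cells and was represented by few reads in aged ones. The 4 young Paneth libraries held 1136, 590.0, 596.4 and 198.5 CPM, from 622.25 to 6505.5 deposited reads. The 3 aged Paneth libraries held 6.12, 6.2 and 2.79 CPM, from 21, 35 and 23 reads, with exact 95% Poisson intervals of 3.79 to 9.35, 4.32 to 8.62 and 1.77 to 4.19 CPM. The lowest young library stood 32.02 times above the highest aged one, so the groups were far from overlapping, while the young libraries differed among themselves by up to 5.72 times.

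Mptx1 showed the same order at a lower level. Its young Paneth libraries held 194.9, 62.1, 111.9 and 35.7 CPM. The aged ones held 1.75, 1.42 and 0.243 CPM, from 6, 8 and 2.5 reads, with Poisson intervals of 0.641 to 3.803, 0.612 to 2.79 and 0.0294 to 0.876 CPM; like all such intervals here they cover counting error only. The highest aged library was 20.4 times lower than the lowest young one, and the library with most Mptx2 among the young, young Paneth 1, also held most Mptx1.

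**Figure D1:**
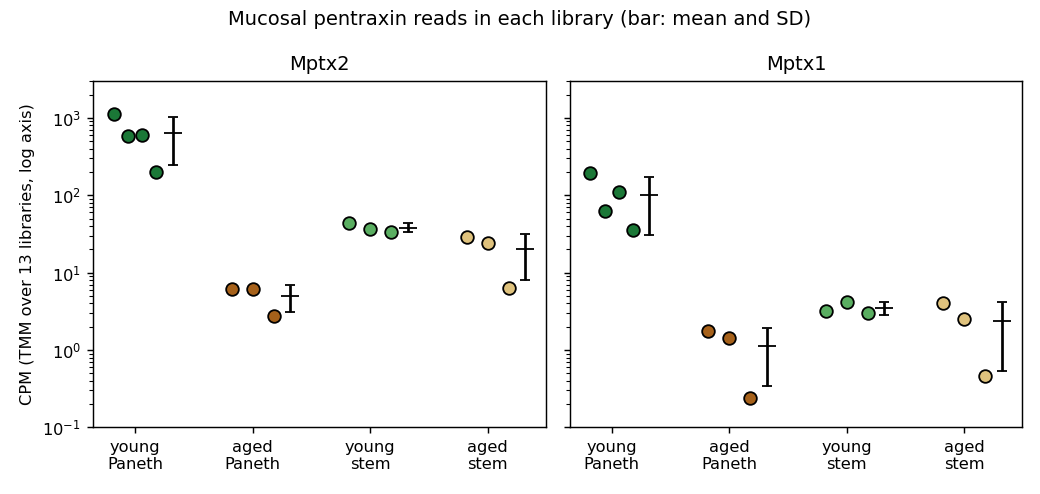
CPM of Mptx2 (left) and Mptx1 (right) on a log axis, 1 point a library in replicate order from left to right, with the group mean and SD as a bar beside the points. Young Paneth libraries of Mptx2 sit between 198.5 and 1136 CPM and aged Paneth libraries between 2.79 and 6.2 CPM, below every stem library.

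Group means of Mptx2 were 630.3 ± 385.2 CPM (SD, n = 4) in young and 5.035 ± 1.945 CPM (SD, n = 3) in aged Paneth cells, a ratio of 125.2. For Mptx1 they were 101.2 ± 70.0 and 1.136 ± 0.791 CPM, a ratio of 89.1. The fitted log2 change, aged minus young, was -6.97 ± 0.73 (SE) for Mptx2 and -6.58 ± 0.82 for Mptx1 by edgeR over the 7 Paneth libraries. These were the lowest and the next lowest of 14106 genes fitted. In that fit 0.0142% of genes passed as lower at an adjusted p of 0.05, and for 3.73% every aged library was below every young one; since the genes were picked in this contrast, nothing is read from these shares. With any 1 library left out the changes stayed between -7.28 and -6.55 for Mptx2 and between -7.00 and -5.99 for Mptx1.

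Mptx2 ranked 127th by mean CPM among genes with reads in young Paneth cells and 11284th in aged ones; Mptx1 ranked 1361st and 15848th. Per kilobase of transcript, Mptx2 stood at 793.8 and Mptx1 at 126.6 CPM per kb in young Paneth cells. In aged Paneth cells the levels per kilobase were 6.34 and 1.42.

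The proportion of Mptx1 in the pair overlapped between the ages. Mptx1 made up 13.81% ± 2.89 (SD, n = 4) of the pair's reads in young and 16.27% ± 7.39 (n = 3) in aged Paneth libraries. In stem libraries it made up 8.39% ± 1.70 (young) and 9.47% ± 2.84 (aged, n = 3 each). Within the young Paneth group, young Paneth 2 stood at 9.52% (exact 95% interval 7.95% to 11.3%) against 14.64% to 15.8% in the other 3. Only 95 reads of the pair were left in the aged Paneth libraries together, with an interval of 9.94% to 25.9%, so a shift of the proportion by some percentage points was not detectable at this depth. Stem libraries gave exact permutation p = 0.7 between the ages (two-sided, smallest possible 0.1; adjusted p = 0.7 over 3 tests in these libraries).

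**Figure D2:**
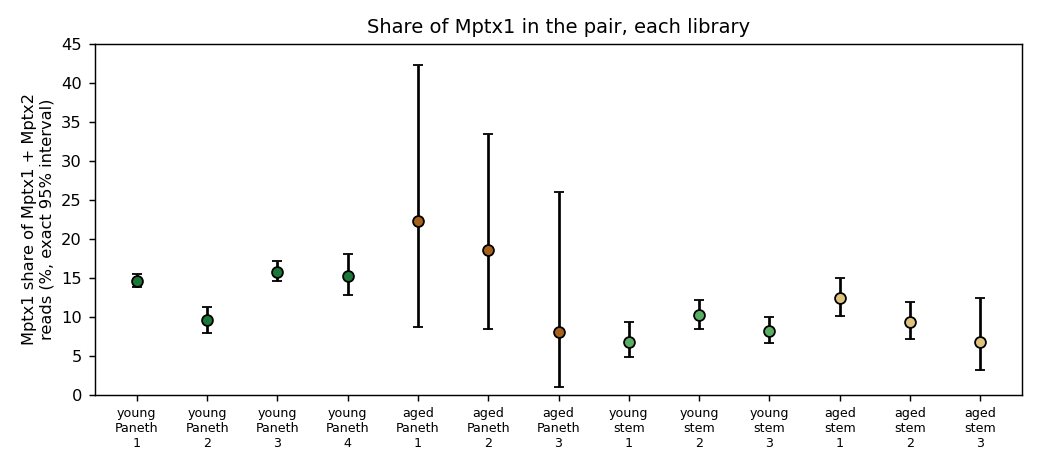
Reads of Mptx1 as a percentage of the reads of Mptx1 and Mptx2 in each library, with exact 95% binomial intervals. The young Paneth libraries have narrow intervals around 9.52% to 15.8%, and the 3 aged Paneth libraries, with 25 to 43 reads of the pair each, have wide ones that overlap them.

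Stem libraries held Mptx2 at intermediate levels. The young ones stood at 43.8, 37.2 and 33.7 CPM and the aged ones at 29.0, 24.4 and 6.41 CPM. Every aged library was below every young one, which held for 6.36% of the 17701 genes tested, and the gap between the groups was small beside the distance of aged stem 3 from the others. Means were 38.2 ± 5.10 and 19.94 ± 11.94 CPM (SD, n = 3 each). The log2 change was -0.94 ± 0.50 (SE). By edgeR's quasi-likelihood test the unadjusted p was 0.10 and the adjusted p 0.649, so the gene did not pass. DESeq2 gave an adjusted p of 0.396. Without young stem 1 the change was -0.80 ± 0.74 (adjusted p = 0.627 by edgeR).

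Mptx1 was scarce in stem libraries. The young ones held 3.20, 4.22 and 2.99 CPM and the aged ones 4.10, 2.51 and 0.461 CPM. The groups overlapped. The log2 change was -0.55 ± 0.58 (SE; adjusted p = 0.813 by edgeR, 0.882 by DESeq2), and -0.58 ± 0.74 (adjusted p = 0.725 by edgeR) without young stem 1. No gene passed in stem cells by edgeR (0% of 17701, with 8.34% at an unadjusted p under 0.05), against 0.683% by DESeq2 and 7.29% by edgeR without young stem 1. The size of both changes depended on aged stem 3: without it they were -0.51 for Mptx2 and -0.07 for Mptx1, and without aged stem 1 they were -1.31 and -1.21.

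From high to low, the order of Mptx2 was young Paneth, young stem, aged stem and aged Paneth. Young Paneth stood 16.5 times above young stem by the means, whereas aged stem stood 3.96 times above aged Paneth. The last neighbours in that order nearly touched, with 6.41 CPM in the lowest aged stem and 6.2 CPM in the highest aged Paneth library. Both ratios and this gap depend on the TMM factors, which differed by cell type. They were 0.4125 to 0.788 in young Paneth, 0.8155 to 1.004 in aged Paneth and 1.339 to 1.581 in stem libraries. Distances between the cell types were not recomputed with library totals. For Mptx1 the order was the same, with overlap between young and aged stem and between aged stem and aged Paneth libraries. The Paneth and stem age changes are given side by side without a test of their difference, because the Paneth one served to choose the genes.

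Other products of Paneth granules were compared library by library, from a list of 18 genes with lysozyme, alpha-defensins, the defensin-activating protease gene Mmp7, intelectin Itln1, the angiogenin Ang4 and the phospholipase Pla2g2a. Their summed level was 8696 to 97780 CPM in young Paneth and 4270 to 35190 CPM in aged Paneth libraries, and 1758 to 2123 CPM (young) and 659.4 to 2494 CPM (aged) in stem libraries; Defa-rs7 had no reads in any group. Near-identical defensin genes share reads, so single defensin values are uncertain. In Paneth cells 17 of 17 tested members had a fitted change below 0, as had 50.2% of all genes, with a median of -1.69 against -0.00185 over all genes. By edgeR 0 passed at an adjusted p of 0.05, and 8 had an unadjusted p under 0.05, against 8.43% of all genes. DESeq2 called 2, against 0.784% of all genes. Their changes ranged from -3.50 in Defa22 to -0.97 in Pnliprp2, all nearer to 0 than those of the pentraxins. That follows from the choice of the pair for its low values in this contrast. For none of these 17 genes did the aged libraries all lie below the young ones. That held for only 3.73% of all genes, so its absence does not set the granule genes apart.

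The young library with the fewest granule reads and the aged one with the most are set side by side as a description. The pentraxins were chosen for high young and low aged values and these libraries for their granule levels, so the difference supports nothing further. Young Paneth 4 held 8696 CPM of granule genes and aged Paneth 1 held 35190 CPM, 4.05 times as much, and aged Paneth 1 was the higher one in 17 of 17 granule genes with reads. Mptx2 stood at 198.5 CPM in young Paneth 4 and 6.12 CPM in aged Paneth 1, a ratio of 32.5, and Mptx1 stood 20.4 times higher in young Paneth 4. Counted per 1000 reads of granule genes, Mptx2 took 11.62, 10.25, 11.74 and 22.83 reads in the young Paneth libraries. In the aged Paneth libraries it took 0.174, 1.45 and 0.221 reads. For Mptx1 the proportion was 1.08 to 4.11 per 1000 granule reads in young Paneth libraries and 0.0192 to 0.332 in aged ones.

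Stem libraries were on the side of the young Paneth libraries in this proportion. Mptx2 took 24.89, 17.5 and 16.36 reads per 1000 granule reads in young stem and 11.63, 10.09 and 9.72 in aged stem libraries. The aged stem proportion was thus close to that of 3 young Paneth libraries and several times that of every aged Paneth library. Every aged stem library was below every young stem one, with or without young stem 1, with an exact two-sided permutation p = 0.1, the smallest that 3 against 3 libraries allow (adjusted p = 0.3 over 3 tests). Mptx1 took 1.82, 1.99 and 1.45 reads in young and 1.64, 1.04 and 0.70 in aged stem libraries, which overlapped (exact permutation p = 0.2, adjusted p = 0.3).

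**Figure D3:**
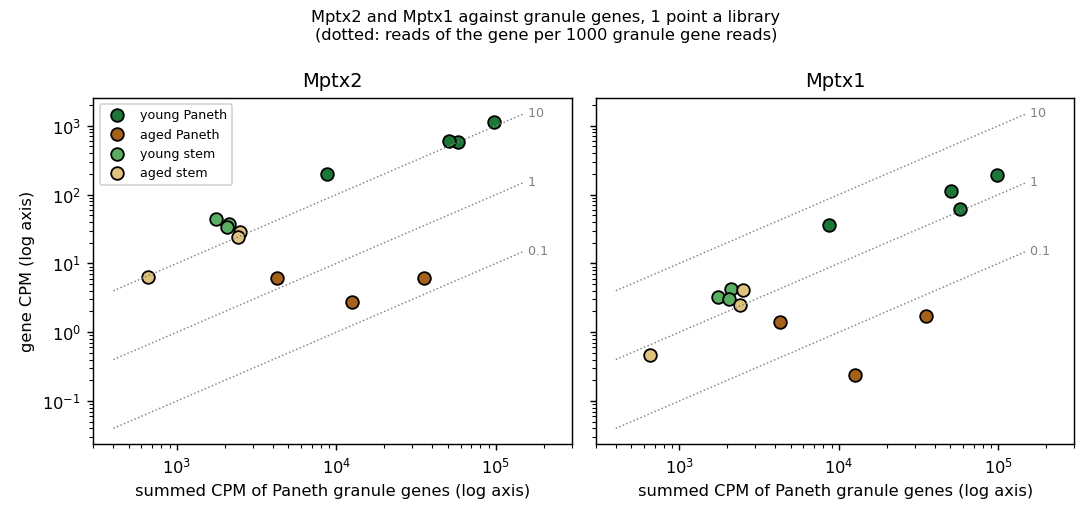
CPM of Mptx2 (left) and Mptx1 (right) against the summed CPM of the Paneth granule genes, both on log axes, 1 point a library; dotted lines mark 0.1, 1 and 10 reads of the gene per 1000 granule reads. Young Paneth and stem libraries lie near the upper line for Mptx2, from 9.72 to 24.89, and the 3 aged Paneth libraries lie between 0.174 and 1.45.

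RNA of other cell types differed between the Paneth libraries too. The 20 enterocyte markers summed to 14990, 3995, 8143 and 40130 CPM in young and 14500, 55580 and 47250 CPM in aged Paneth libraries, with none at 0; their fitted change was above 0 in 20 of 20 (median 1.24), with 0 passing by edgeR, 1 by DESeq2 and 2 at an unadjusted p under 0.05 (0.784% and 8.43% over all genes). Goblet markers summed to 939.5 to 3874 CPM in young and 692.1 to 1764 CPM in aged Paneth libraries, and 10 of 11 tested were below 0 (median -1.24), with 0 passing by edgeR, 4 at an unadjusted p under 0.05 and 1 by DESeq2, against the same shares over all genes. In bulk RNA fewer cells of a type and less RNA per cell cannot be told apart. Young Paneth 4 had 40130 CPM of enterocyte markers and 198.5 CPM of Mptx2, and aged Paneth 1 had 14500 CPM of enterocyte markers and 6.12 CPM of Mptx2. The part of the Esp38, Lars2 and Gm20594 reads in the age values was not tested beyond leaving them out before scaling, which gave -6.96 for Mptx2 and -6.58 for Mptx1.

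Genes for Paneth cell fate and secretion had fitted changes below 0 in 16 of 18 members in Paneth cells (median -1.04), against 50.2% of all genes. By edgeR 0 passed and 3 had an unadjusted p under 0.05, against 0.0142% and 8.43% of all genes. DESeq2 called 1, against 0.784% of all genes. The stress-related nuclear protein gene Nupr1 averaged 463.8 and 146.6 CPM and the surface marker gene Cd24a 322.1 and 103.2 CPM in young and aged Paneth libraries (log2 changes -1.66 and -1.64, adjusted p = 0.604 and 0.534 by edgeR). Guca2b, which encodes the peptide uroguanylin, averaged 124.6 and 249.7 CPM (1.01, adjusted p = 0.596). Of the Reg lectins, secreted C-type lectins of the gut, 3 of 5 tested were below 0, with 0 passing by edgeR. DESeq2 called 3, against 0.784% of all genes. These were Reg1 and Reg3a as higher in aged Paneth libraries (log2 changes 2.09 and 3.23) and Reg3g as lower (-3.80). Reg4 averaged 236.2 and 101.4 CPM in young and aged Paneth libraries, Reg3b 89.0 and 65.9 CPM, and Reg1 32.6 and 140.3 CPM.

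None of the other pentraxins passed a test with age. Of 8 further family members, 5 were tested in Paneth cells, 2 with a change below 0 and 3 above (median 0.04). Of these, 0 passed by edgeR or DESeq2, against 0.0142% and 0.784% of all genes. By edgeR 1 had an unadjusted p under 0.05, against 8.43% of all genes. Crp, which lies on the same stretch of chromosome 1, averaged 4.59 CPM (young) and 5.78 CPM (aged) in Paneth libraries (0.36 ± 0.57 log2, adjusted p = 0.859). The long pentraxin Ptx3, which is made at sites of inflammation, stood at 5.24 and 4.601 CPM (-0.14 ± 0.43, adjusted p = 0.940). The neuronal pentraxins Nptx1 and Nptx2 stood at 5.16 and 5.25 CPM and at 6.28 and 1.46 CPM, with a fitted change of -2.13 ± 0.66 for Nptx2 (adjusted p = 0.534). Svep1, a large matrix protein with a pentraxin domain, stood at 6.92 and 11.4 CPM. Apcs had 4 and 2 reads in the young and aged Paneth libraries together, and Ptx4 and Nptxr were also too low to be tested there.

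Per kilobase of transcript the mucosal pair stood far above the family in young Paneth cells. Ptx3 and Crp held 2.76 and 2.71 CPM per kb there, Nptx2 2.48 and the remaining members under 1, against 793.8 for Mptx2 and 126.6 for Mptx1. In aged Paneth cells Mptx2 stood at 6.34 and Mptx1 at 1.42 CPM per kb, beside 3.41 for Crp and 2.42 for Ptx3. In stem cells 5 family members were tested, 4 with a change above 0, while 52.2% of all genes lay below 0. By edgeR 0 passed and 2 had an unadjusted p under 0.05, against 0% and 8.34% of all genes.

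Receptors and complement proteins that short pentraxins engage were scarce in all libraries. The list holds 15 genes, which include the Fc gamma receptor genes, C1q chains, C3 and C4b. They summed to 23.2 to 31.0 CPM in young and 20.6 to 25.3 CPM in aged Paneth libraries. In stem libraries the sums were 22.9 to 61.8 CPM (young) and 22.8 to 24.8 CPM (aged). Of 6 tested in Paneth cells 4 were below 0, and of 10 tested in stem cells 7 were below 0, against 50.2% and 52.2% of all genes. Of these, 0 passed by edgeR or DESeq2. An unadjusted p under 0.05 by edgeR was found for 1 and 0, against 8.43% and 8.34% of all genes. DESeq2, run without the edgeR filter on low counts, called C1qa, a C1q chain that was not among the 10, in stem cells (adjusted p = 0.0313), with 75, 272 and 3 reads in young and 3, 3 and 1 reads in aged libraries. Serine protease gene C1ra averaged 1.90 and 2.75 CPM and C2 4.80 and 3.58 CPM in young and aged Paneth cells.

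**Figure D4:**
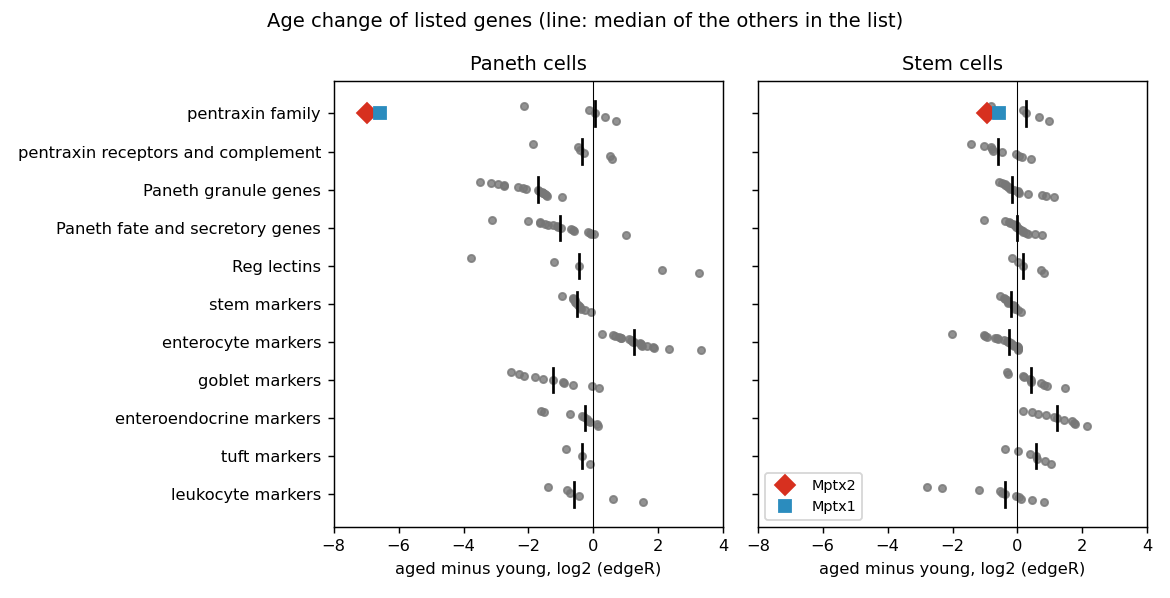
Fitted log2 change, aged minus young, of the listed genes in Paneth cells (left) and stem cells (right), with 1 grey point a gene and a line at the median of each list without the mucosal pair. Mptx2 and Mptx1 stand at -6.97 and -6.58 in Paneth cells, apart from all listed genes, as follows from their choice in this contrast. In stem cells they stand at -0.94 and -0.55, among the listed genes.

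Markers of the remaining cell types gave no call by edgeR in either cell type. Fitted changes in Paneth cells lay below 0 in 12 of 12 stem markers, 8 of 10 enteroendocrine, 3 of 3 tuft and 4 of 6 leukocyte markers. In stem cells, where 52.2% of all genes lay below 0, so did 10 of 12 stem, 16 of 20 enterocyte, 2 of 11 goblet, 0 of 11 enteroendocrine, 1 of 7 tuft and 7 of 11 leukocyte markers, while granule genes were split 9 to 7 and fate genes 9 to 9. Enteroendocrine markers summed to 130.9 to 178.1 CPM in young and 354.2 to 732.3 CPM in aged stem libraries, with 8 of 11 at an unadjusted p under 0.05 and 5 called by DESeq2; the all-gene shares in stem cells are 8.34% and 0.683%. Of the further listed genes fitted in stem cells DESeq2 called 1, the enterocyte marker Cyp3a11. Counts in Paneth cells depend on the scaling, and library totals moved the median of all genes to 0.57. Below 0 were then only 2130 of all 14106 genes, the background for the counts that follow. Among the lists, 6 of 12 stem, 3 of 10 enteroendocrine, 1 of 3 tuft and 3 of 6 leukocyte markers were below 0. So were 2 of 6 receptor and complement, 2 of 5 Reg, 13 of 18 fate and secretory, 9 of 11 goblet and 1 of 5 other pentraxin genes. Granule genes (17 of 17 below 0), enterocyte markers (0 of 20) and both mucosal pentraxins (-6.44 and -6.10) kept their direction under library totals.

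None of the other genes tested from Crp to Mptx1 passed in Paneth cells, and genes outside this stretch were not examined as neighbours. Between the start of Crp and the end of Mptx1 on chromosome 1 (172698056 to 174332877, GRCm38), 45 further genes were measured, 33 of them between the pair. They include olfactory receptor genes, the adhesion gene Cadm3 and the cluster of interferon-inducible DNA sensor genes with Aim2 and Ifi203. Of the 45, 11 had enough reads to be tested in Paneth cells, with changes from -0.72 to 0.93 (median 0.19), 4 below 0, 0 passing by edgeR or DESeq2 and 1 at an unadjusted p under 0.05. Aim2 averaged 11.0 and 7.56 CPM and Ifi203 37.3 and 49.3 CPM in young and aged Paneth libraries. In stem cells 11 were tested, 7 below 0, with 0 passing by edgeR or DESeq2 and 1 at an unadjusted p under 0.05. Of all genes, 50.2% in Paneth and 52.2% in stem cells lay below 0, and 8.43% and 8.34% had an unadjusted p under 0.05. By edgeR only 0.0142% and 0% of all genes passed, so 0 of 11 passing does not set this stretch apart.

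**Figure D5:**
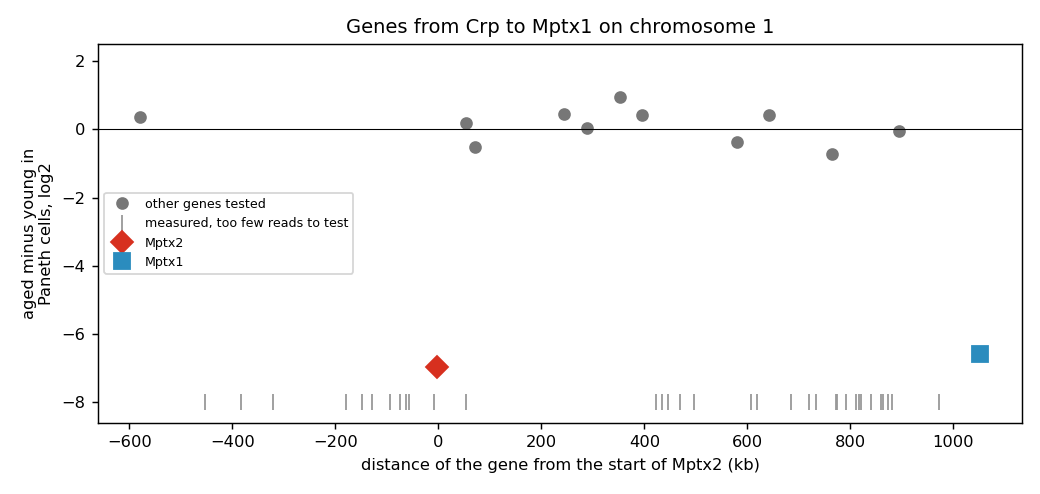
Fitted log2 change, aged minus young, in Paneth cells of the genes from Crp to Mptx1, by distance from the start of Mptx2 in kb; ticks at the bottom mark genes with too few reads to test and carry no value. The 11 other genes tested lie between -0.72 and 0.93, and Mptx2 and Mptx1 at -6.97 and -6.58.

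Likeness to Mptx2 was described by Pearson's r of log2(CPM + 1) over the 7 Paneth libraries, among 11429 genes with a mean of at least 5 CPM there, with no test because the libraries share age group and depth. Mptx1 was closest (r = 0.995), and a high r follows from the choice of both genes for low aged values in these libraries. Then came Nos2, the inducible nitric oxide synthase (0.983), the mitochondrial ribosomal protein gene Mrps12 (0.982), Rbm26 (0.973), the histone gene Hist1h2bm (0.972) and the desmosome gene Pkp2 (0.968). Mean Nos2 was 34.1 ± 18.3 CPM (SD, n = 4) in young and 1.78 ± 1.22 CPM (SD, n = 3) in aged Paneth libraries (log2 change -4.36, adjusted p = 0.146 by edgeR). In stem cells its means were 30.9 CPM (young) and 46.1 CPM (aged). With TMM scaling these were near the mean of young Paneth cells, where Mptx2 stood 16.5 times above young stem cells. The median r of granule genes was 0.69 and that of enterocyte markers -0.605.

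With each library's group mean removed, which takes out the age difference, r between Mptx1 and Mptx2 was 0.939 over the 7 Paneth libraries, the 46th highest, and 0.938 over all 13 libraries, the highest of all. The named genes highest over the 7 Paneth libraries were Tfcp2l1 (0.987), Ppp2r1b (0.986), the ER stress gene Serp1 (0.983), Slc35a1 (0.981) and Bcas2 (0.98), and 1 unnamed clone among the highest was passed over. Granule genes had a median r of 0.711 in this measure and enterocyte markers -0.503. Levels of the pair thus went together also among libraries of 1 group, as did, less closely by this measure, those of the granule genes. Reads from shared sequence can enter the values of both mucosal pentraxins, and their part in r was not tested.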

How the data were processed

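The authors deposited 1 table a library with 36186 rows, under a column named FPKM. The deposited values have the form of expected counts (reads with fractions): 69.77% to 77.49% of those under 20 lie within 0.001 of a whole number. The submitters' processing notes name mm10 and DESeq without a role; for aligner, counter and annotation, names were not given in the sources used here. Values were summed by Entrez ID to 35791 genes, 27 symbols that a spreadsheet had turned into dates were restored, and sums were rounded. Age was fitted within each cell type with edgeR 4.0.16 in R 4.3.3 (TMM, filterByExpr, robust quasi-likelihood test, Benjamini-Hochberg 0.05 over all genes). SE is the absolute log2 change over the square root of F. DESeq2 1.42.0, other scalings, filters, prior counts and left-out libraries were alternatives. Single values were compared by exact permutation (SciPy 1.17.1). Transcript and promoter sequences come from GENCODE M21 and RefSeq (GRCm38.p6), in which both members and Crp and Apcs were found; alignments used Biopython 1.88.

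Members, lists, motifs and tests were chosen with earlier results of these data known. Named are the 2 members, family members with at least 10 reads, the 3 highest of each other list (for some lists only their counts are printed, and 1 such gene is not reported here), checks of cell type and the 5 genes most like Mptx2. Defa22 and Pnliprp2, as the ends of a range, and the neighbours Aim2, Ifi203 and Cadm3 were named after their values were seen. So were the genes C1qa, Cyp3a11, Reg3a and Reg3g.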

Additional observations from a re-analysis of the deposited data

Results flagged for a closer look

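Of 9 measures of the pair and of granule genes examined in the 4 young Paneth libraries, 2 had 1 library far from the others. Chance flags about 1 in 20 such groups, and the measures share reads. Young Paneth 4 held 22.83 reads of Mptx2 per 1000 reads of granule genes, against 10.25 to 11.74 in the other 3; its gap to the nearest library was 0.882 of the group's range. Per 1000 reads of Lyz1 it held 101.5 reads of Mptx2 against 36.1 to 47.3 (gap 0.83 of the range), so this is not a separate result. This library also had the lowest granule gene level and the highest enterocyte marker level of its group, whose part in the proportion was not tested.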

How the results depend on the processing

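In Paneth cells the changes of Mptx2 and Mptx1 kept their direction and moved by less than the spread between libraries under other scalings, no filter, DESeq2, all 13 libraries in the fit, a prior count of 2 (-6.86 and -6.10) and each library left out. With reads of the granule genes as denominator they moved to -4.52 and -4.14. In stem cells neither passed in any alternative; without 1 library each, values ran from -1.31 to -0.51 for Mptx2 and from -1.21 to -0.07 for Mptx1. The count of listed genes passing, of 141 besides the pair (not all tested), was 0 in both cell types. It rose to 8 in Paneth and 7 in stem cells with DESeq2 (1 of the 7, C1qa, is outside the edgeR filter). DESeq2 called 0.784% of all genes in Paneth and 0.683% in stem cells. The count was 2 in Paneth cells with all 13 libraries and 3 in stem cells without a filter on low counts. For these settings the all-gene share was not counted. The cause of the rises was not tested. Leaving out 1 library gave 0 to 1 in Paneth cells and 0 to 12 in stem cells. The 1 came without aged Paneth 1, where 20 of 14628 genes passed. The 12 came without young stem 1, where 7.29% of 18275 genes passed. Without young stem 3 the count was 5, and 46 of 17984 genes passed.

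Replicate numbers are not stated to pair libraries, and same-numbered libraries did not deviate together (correlations of -0.391 to -0.0386 in Paneth and -0.142 to 0.146 in stem cells). With the replicate number as a block, in which young Paneth 4 has no partner and informs only its own block, the changes were -7.26 and -6.79 in Paneth cells. In stem cells the block gave -1.17 for Mptx2 and -0.89 for Mptx1 (adjusted p = 0.471 and 0.66 by edgeR). It gave 3 listed genes passing, and the all-gene share was not counted there. Depth limits the aged Paneth values: 79 reads of Mptx2 and 16 of Mptx1 were left there.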
